A study of Mus musculus with 54 samples.

Results

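The NRF2, glutathione and thioredoxin genes described here are Nfe2l2, Nqo1, Hmox1, Gclc, Gclm, Slc7a11, Srxn1, Txnrd1, Txn1 and Txnip, chosen by name as 10 rows of a table of 23481 genes. All 10 passed the filter on low values. They were measured by RNA-seq in 27 sources of 4T1 cells, a mouse mammary carcinoma line, with 2 libraries, lettered A and B, for each source and 54 in all. The sources were 2 lung metastases (Lung_1 and Lung_2), 2 orthotopic tumors (Tumor_1 and Tumor_2), the 2 clones labelled intravasating (E and T) and 21 clones labelled non-intravasating (A to D, F to S and U to W). Each clone was grown from a single sorted cell and cultured in DMEM with high glucose and serum, and its capacity to enter blood vessels had been scored in a pool of clones, a score that served to choose genes for that trait. No treatment or altered allele is named for any group. The labels give neither the strain nor the age of the mice that carried the tumors and metastases, and leave unsaid if host tissue was removed from the specimens before RNA was taken. Nothing says that the libraries of a clone or specimen came from separate cultures or animals, so a p-value over libraries reflects library-to-library spread only, which could be technical.

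NRF2, the transcription factor encoded by Nfe2l2, is held in the cytoplasm and degraded through KEAP1, and it escapes this when oxidants or electrophiles modify KEAP1. It then binds antioxidant response elements together with small MAF proteins and drives genes that make glutathione, recycle thioredoxin, handle heme and iron and detoxify quinones, while BACH1 represses part of the same set. Because NRF2 is controlled mainly through the stability of its protein, the level of Nfe2l2 RNA is not a readout of its activity, and its targets are usually read beside it.

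Stretches of promoter are shown for the members whose window held the core of the antioxidant response element or the C/EBP-ATF response element (CARE), because those letters are where NRF2 or ATF4 are known to bind in other genes. RefSeq windows from 250 bases before to 50 after the transcript start (build GRCm38.p6) were matched for 8 of the 10 members, all but Hmox1 and Gclc. The core was searched as TGACNNNGC, and CARE as TGATGNAA, on both strands. The core stood in the windows of 4 members, starting 240 bases before the start in Nfe2l2, 134 before it in Gclm, 92 before it in Txnrd1 and 29 after it in Srxn1. Txnrd1 had 3 windows, of which 1 held the core. Of all 27025 genes with windows, 14.0% held the core in at least 1, as did 12.4% of all 32851 windows. CARE stood at 2 places in the Slc7a11 window, on opposite strands, and in 3.97% of all windows. The E-box CACGTG, in 7.15% of all windows, was in none of the members' windows. Only these letters were searched, so other forms of the motifs would be missed. The letters overlap no other motif searched, and they describe sequence alone. Below, each line gives the gene, its window on the strand of the gene and the match in capitals, which reads on the opposite strand in Srxn1, Gclm and Txnrd1.
Nfe2l2, chr2:75704875-75704913, minus strand: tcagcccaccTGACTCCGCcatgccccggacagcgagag
Srxn1, chr2:152105542-152105570, plus strand: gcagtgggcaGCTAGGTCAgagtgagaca
Gclm, chr3:122245403-122245451, plus strand: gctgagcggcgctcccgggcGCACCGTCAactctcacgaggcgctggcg
Txnrd1, chr10:82859094-82859142, plus strand: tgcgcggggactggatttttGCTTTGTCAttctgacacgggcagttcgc
Slc7a11, chr3:50443633-50443699, minus strand: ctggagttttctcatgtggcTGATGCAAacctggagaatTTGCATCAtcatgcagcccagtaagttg

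Library depth, as reads recovered from the deposited values, ran from 16327693 to 20368740 in the lung metastases, from 12183058 to 17369960 in the tumors, from 15581390 to 31609870 in the intravasating clones and from 8849257 to 27304778 in the other clones. The libraries of every source differed by more than sampling noise, and those of Tumor_2 differed most. Library B of Tumor_2 stood apart: for Txn1 it held 4088 normalized counts, against 12592 in library A of the same tumor. All levels below are normalized counts, which remove depth but not gene length, and all differences are on the deposited variance-stabilised log2 scale, which understates the change of low genes. Per kilobase of annotated exon, the clone medians ran from 8378 normalized counts for Txn1 through 841 for Txnrd1 and 683 for Nfe2l2 to 382 for Srxn1, 367 for Gclc, 255 for Hmox1, 220.4 for Gclm, 146 for Txnip, 139.8 for Nqo1 and 60.2 for Slc7a11. The strand setting of the counting is not given in the sources used here, so reads of Txnip, Gclm, Slc7a11 and Txnrd1 cannot be told apart from those of genes annotated across them on the opposite strand. Gclm, Slc7a11 and Txnrd1 also share their spans with genes on the same strand, among them Eid3 in Txnrd1. Nfe2l2 shares its span with the small RNA gene Gm24996 on its own strand.

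**Figure D1:**
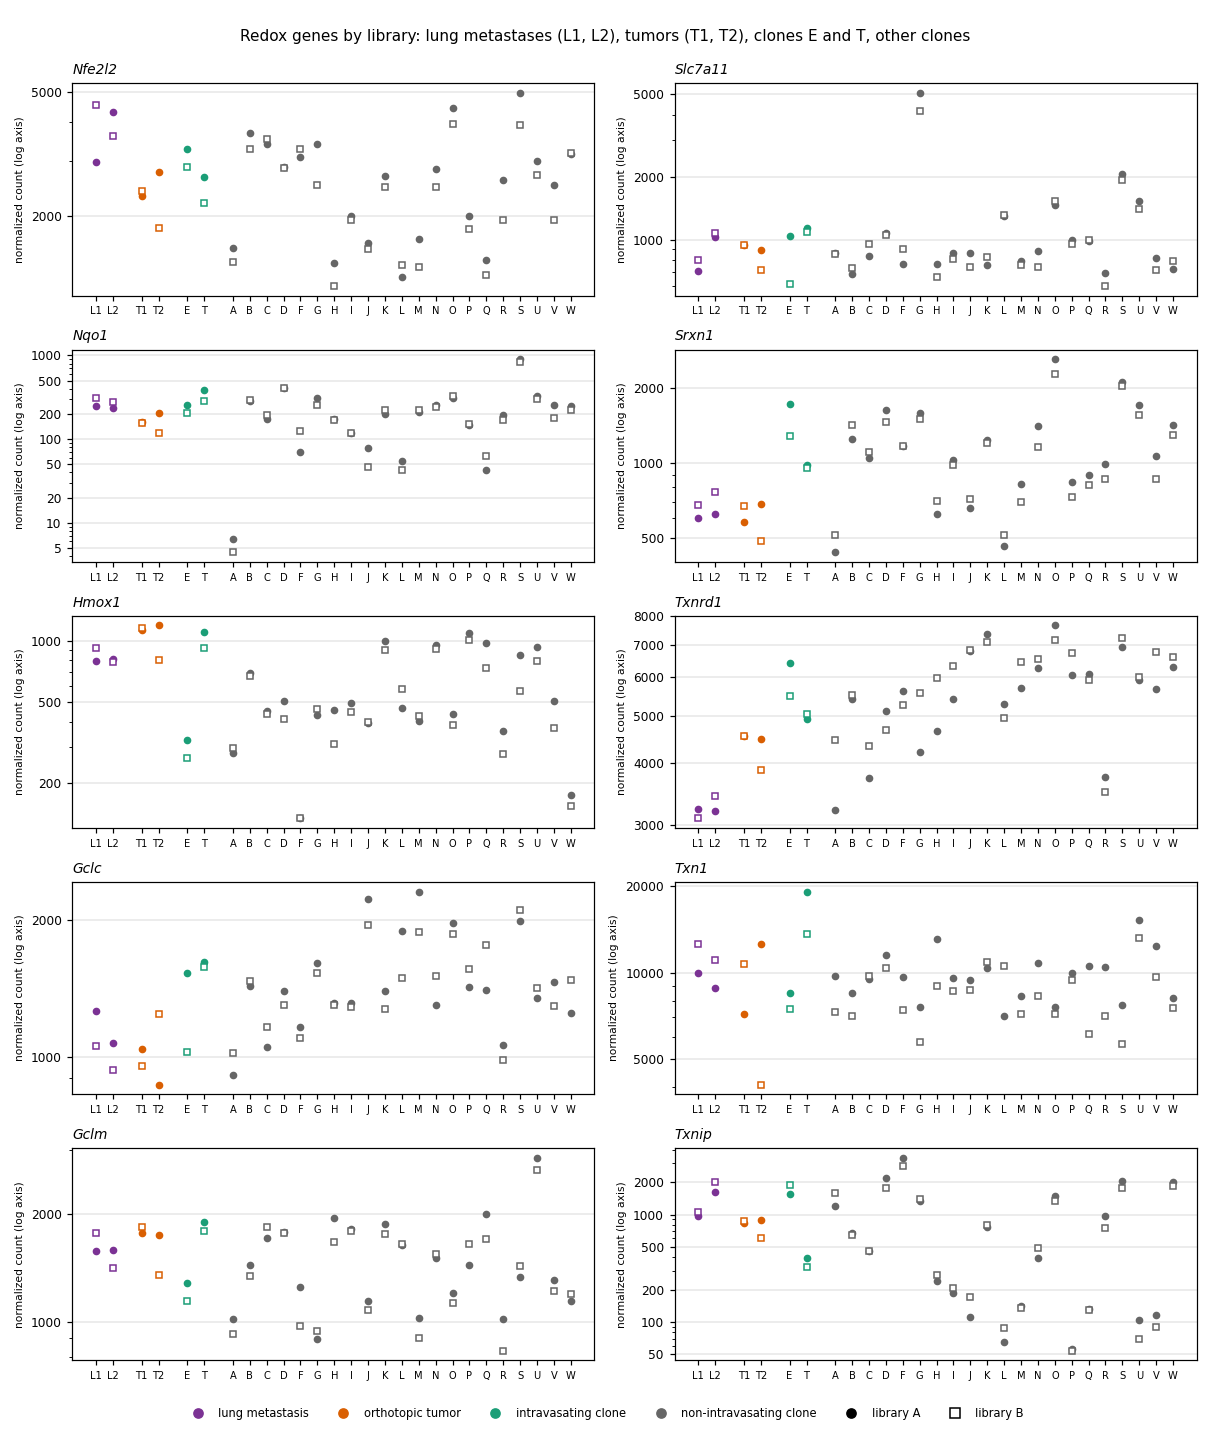
Normalized count (log axis) of each gene in each library, with 1 panel per gene; L1 and L2 are lung metastases, T1 and T2 tumors, then clones E and T and the 21 other clones by letter, with filled circles for library A and open squares for library B. Nqo1 is near 0 in clone A, Slc7a11 stands alone in clone G, and Txnip spans 55.2 to 3107 normalized counts over clone means.

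The 23 clones differed from each other in all 10 genes, with Txnip differing in the most pairs of clones and Txn1 in the fewest. In limma's moderated F-test over the 46 clone libraries, the adjusted p lay between 5.58e-26 for Txnip and 0.000456 for Txn1. This separates the members little from other genes, since 95.1% of the 13637 genes tested passed the same test. The share of clone pairs that differed says more. Over all genes and all 253 pairs, 39.8% of the gene-by-pair contrasts passed an adjusted p of 0.05 in limma, and the median gene differed in 99 pairs. Txnip differed in 222 pairs, more than 99.8% of genes did. Srxn1 differed in 185 pairs, Nqo1 in 178, Hmox1 in 172, Nfe2l2 and Gclm in 161 each, and Slc7a11 in 128. Gclc with 110 pairs and Txnrd1 with 99 stood near the median gene, and Txn1 with 46 stood below it. With the library letter as a block Txn1 differed in 76 pairs, still the fewest of the 10 genes; it was higher in library A than in library B in 20 of 23 clones. The standard deviation between clones was 1.53 for Txnip, 0.31 for Txn1, 0.29 for Gclc and 0.28 for Txnrd1, against 0.16, 0.25, 0.14 and 0.13 between the libraries of a clone, so that Txn1 had the largest spread of the 10 genes between libraries but not the smallest between clones. The median gene had 0.29 between clones and 0.14 between libraries.

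**Figure D2:**
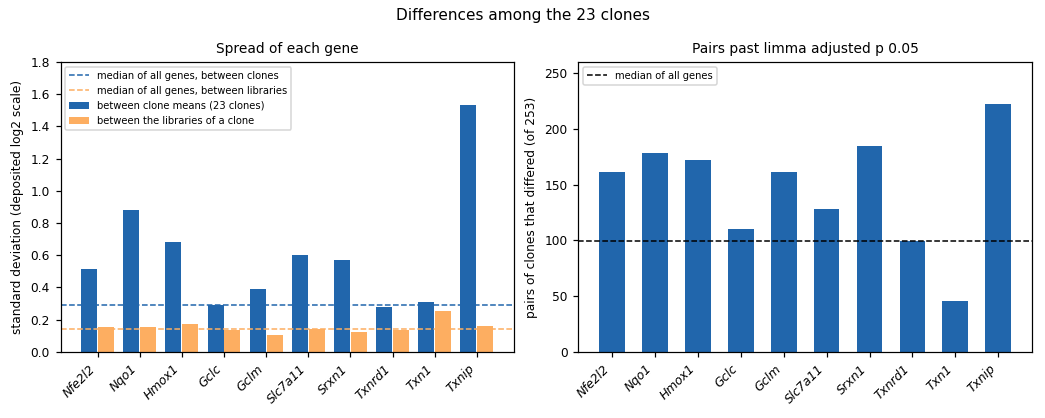
Left, the standard deviation of each gene on the deposited log2 scale between the means of the 23 clones (blue) and between the libraries of a clone (orange), with dashed lines for the medians of all genes; right, the number of the 253 clone pairs that differed for each gene, with a dashed line for the median gene. Txnip has the largest spread between clones of the 10 genes and differs in 222 pairs, and Txn1 is the gene in which the spread between libraries comes nearest to that between clones.

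Nfe2l2 (chr2:75675513-75704641, minus strand) varied 3.37-fold over the clones. Its lowest clone mean was 1313 normalized counts in clone H, the median 2593 and the highest 4426 in clone S, which overlapped the next clone, O, with 4186. In the order of clones, 19 of 22 neighbours overlapped in their libraries, as many as for the median gene, and 3 did not.

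Nqo1 (chr8:107388225-107403206, minus strand), which reduces quinones with NADPH or NADH and is a classical NRF2 target, had the widest fold range of the 10 genes. Clone A had 5.45 normalized counts, which rest on 6 reads in library A and 4 in library B. The next clone, L, had 49.2, the median was 217 and clone S had 873. Clone S stood 2.14-fold above the next clone, D, with 409, and the libraries of S (901 and 844) did not overlap those of D (408 and 409). Clone A was also the lowest clone for Gclc, with 967, and for Srxn1, with 477, but there it lay close to the next clones, with 1024 and 489.

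Hmox1 (chr8:75093621-75100589, plus strand), the inducible heme oxygenase that opens heme and releases iron, ranged 7.84-fold. Its lowest clone was F with 134 normalized counts, followed by W with 163, the median was 447 and the highest was P with 1049. Clone T, with 1011, overlapped clone P.

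The 2 subunits of glutamate-cysteine ligase, the first enzyme of glutathione synthesis, did not follow each other over the clones. Gclc (chr9:77754535-77794485, plus strand), the catalytic subunit, ran from 967 normalized counts in clone A over a median of 1381 to 2093 in clone M and 2086 in clone J. Gclm (chr3:122245557-122270732, plus strand), the modifier subunit, ran from 918 in clone G over 1386 to 2745 in clone U, whose libraries (2855 and 2634) lay above those of the next clone, Q (1996 and 1703). Clones J and M, highest in Gclc, had a Gclm level below its median in all 4 of their libraries, between 901 and 1144. Over the 23 clones the correlation of the subunits was -0.03 (Pearson) with a Spearman rho of 0.00.

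Slc7a11 (chr3:49892526-50443614, minus strand), the cystine importer xCT that supplies cysteine for glutathione, was set apart by a single clone. Clone G had 5072 and 4174 normalized counts in its libraries. The next clone, S, had 2075 and 1930.0, the median clone mean was 838 and the lowest was 645 in clone R. Clone G thus stood 2.31-fold above S, while it had the lowest mean of all clones in Gclm and in Txn1. In those genes its libraries overlapped those of the next clones, R with 925 normalized counts of Gclm and S with 6699 of Txn1. Slc3a2, which encodes the chain that carries xCT to the cell surface, had 2285 normalized counts in clone G and between 1110.4 and 3157 over all clones.

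Among the thioredoxin genes, the reductase and its substrate had narrower fold ranges over the clones than Srxn1 and the inhibitor Txnip. Srxn1 (chr2:152105516-152111376, plus strand), sulfiredoxin, which repairs over-oxidised peroxiredoxins, ran from 477 normalized counts in clone A and 489 in clone L over a median of 1078 to 2082 in clone S and 2458 in clone O. Txnrd1 (chr10:82833951-82897712, plus strand), the cytosolic thioredoxin reductase, stayed within 2.04-fold, from 3625 in clone R over 5958 to 7407 in clone O. Txn1 (chr4:57943373-57956411, minus strand), thioredoxin itself, stayed within 2.46-fold, from 6676 in clone G over 8805 to 16411 in clone T, and clone T overlapped the next clone, U, with 14237.

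Txnip (chr3:96557957-96561883, plus strand), which binds reduced thioredoxin and curbs glucose uptake, ranged 56.3-fold. Clone P had 55.2 normalized counts and clone L 75.8, the median was 456, and clone F had 3107, with libraries (3368 and 2846) above those of the next clone, D (2207 and 1774). The clones spread over this range without one dominating: 11 of 22 neighbours overlapped for Txnip, against 19 for the median gene.

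Over the clones the members fell into separate patterns and did not move as 1 block. Of the 45 pairs of members, 8 had a Pearson correlation over 0.5 (17.8%) and 1 lay below -0.5, with a median of 0.18. Among all 92977066 pairs of genes tested, 5.95% lay over 0.5 and the median was 0.00. These correlations are descriptions over 23 clone means, and the genes share libraries, depth and preparation. The first pattern joined Nfe2l2, Srxn1, Nqo1 and, less closely, Txnip. Nfe2l2 and Srxn1 had r = 0.90 and rho = 0.87 (r = 0.87 without the 2 clones farthest from the median of Nfe2l2). Nqo1 and Srxn1 had r = 0.80 and rho = 0.81 (0.71 without clones A and S), and Nfe2l2 and Nqo1 had r = 0.71 and rho = 0.68 (0.73 without the 2 farthest). Nfe2l2 and Txnip had r = 0.64 and rho = 0.67 (0.60 without the 2 farthest), and Srxn1 and Txnip had r = 0.53 and rho = 0.55 (0.67 without the 2 farthest).

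The second pattern joined Gclm with Txn1 and Hmox1. Gclm and Txn1 had r = 0.67 and rho = 0.64 (0.51 without clones U and G), and Hmox1 and Gclm had r = 0.61 and rho = 0.66 (0.61 without clones F and W). The third joined Gclc and Txnrd1, with r = 0.66 and rho = 0.51 (0.66 without clones M and J). Nfe2l2 had no such relation to the glutathione or reductase genes: its r was -0.01 with Gclc, -0.04 with Gclm, 0.19 with Txnrd1, 0.30 with Slc7a11 and -0.06 with Hmox1. Of the other members whose window held the core of the antioxidant response element, Srxn1 ran beside Nfe2l2 in RNA, and Gclm and Txnrd1 did not. Nqo1 and Txnip, with r = 0.71 and 0.64 to Nfe2l2, had no core in their windows, and Hmox1 and Gclc had no window. A link between the core and these relations was not tested. Hmox1 and Txnip ran opposite ways, with r = -0.52 and rho = -0.48, but only -0.33 without clones F and W.

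**Figure D3:**
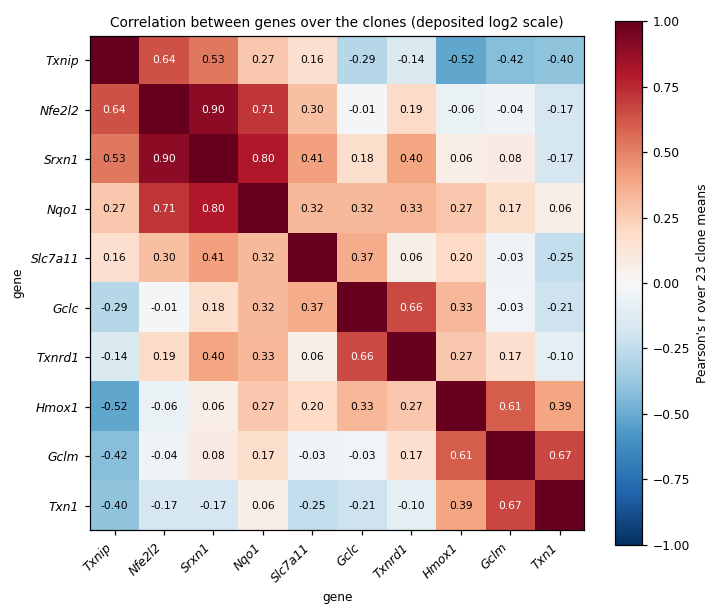
Pearson's r between the genes over the means of the 23 clones on the deposited log2 scale, from -1 (blue) to 1 (red), with the value printed in each cell. Nfe2l2, Srxn1 and Nqo1 form a block of 0.71 to 0.90, Gclm goes with Txn1 (0.67) and Hmox1 (0.61), and Gclc goes with Txnrd1 (0.66).

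The first pattern followed the broadest axis of difference among the clones. The first principal component of all genes tested carried 34.8% of the variance between clone means, and its absolute correlation was 0.90 with Nfe2l2, 0.84 with Srxn1, 0.81 with Txnip and 0.67 with Nqo1, but 0.28 or less with Hmox1, Gclc, Gclm, Slc7a11, Txnrd1 and Txn1. Of all genes, 16.6% had r over 0.5 with Nfe2l2 and 15.8% lay below -0.5. Epcam, an epithelial adhesion gene picked after its values were seen, ran opposite to Nfe2l2, with r = -0.80 and rho = -0.81 (-0.80 without the 2 farthest). Clones S and O, highest in Nfe2l2, had 151 and 228 normalized counts of Epcam, and clone H, lowest in Nfe2l2, had 5300. The highest Epcam level was 16782 in clone A, which had 1508 of Nfe2l2. Clone G had 229 of Epcam with 2964 of Nfe2l2. Depth moved with the pattern as well: the summed reads of a clone had r = 0.51 with Nfe2l2 (rho = 0.50, 0.55 without the 2 farthest) and r = 0.57 with Srxn1. The part of depth and of the epithelial axis in these relations was not tested.

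By the stated rule for likeness, the genes closest to Nfe2l2 among 10446 candidates were Ccndbp1 (r = 0.94), Rbbp9 (0.94), Il6ra (0.93) and Spred1 (0.93), all at least 0.92 without clones H and L. The gene closest to Nqo1 was Fth1, the heavy chain of ferritin that stores iron and a known NRF2 target, with r = 0.87 and rho = 0.84 (0.78 without clones A and S). Fth1 had 20719 normalized counts in clone A, its lowest, and 165340.0 in clone S, its highest, the same clones that mark the ends of Nqo1. The next were Pdp1 (0.86), Bdnf (0.83) and Fundc2 (0.81). For Slc7a11 they were Naa20 (0.85), Npc1 (0.85), Cd14 (0.84) and Gla (0.82), and these rest on clones G and S, since without them r was 0.60, 0.64, 0.42 and 0.48. For Hmox1 they were Gemin2 (0.78), Pdf (0.77), Slirp (0.72) and Prkaa1 (0.72). For Txnrd1 they were Ppil4 (0.76), Galnt4 (0.75), Zbtb7a (0.74) and Syde1 (0.72). For Txnip they were Wdr19 (0.91), Slc25a11 (0.89), Azi1 (0.88) and Ypel3 (0.88).

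Among 119 other genes of the listed pathways, 30 (25.2%) had r over 0.5 with Nfe2l2, against the 16.6% of all genes, and 18 (15.1%) lay below -0.5, against 15.8%. In the list of glutathione-using enzymes 10 of 24 genes lay over 0.5 and 3 below -0.5, in heme and iron 5 and 3 of 10, in detoxification 6 and 1 of 15, in glutathione supply 0 and 1 of 10, and in the ATF4 targets 1 and 5 of 12. The thioredoxin system had 2 and 2 of 21, NRF2 control 3 and 1 of 14, NADPH supply 2 and 2 of 9, and the MondoA and ChREBP genes 1 and 0 of 7. Single genes named here were chosen after their values were seen. With Nfe2l2, the transferases Mgst2 and Gstm1 had r = 0.85 and 0.81, the aldehyde dehydrogenase Aldh3a1 0.82, and Slc3a2 and Slc7a5, the amino acid transporter chains, -0.81 and -0.80. Srxn1 had r = 0.85 with Fth1 and 0.83 with Aldh3a1.

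Outside the first pattern, Gclm had its strongest relation among the 119 listed genes with Bach1, the repressor of part of the NRF2 targets. It had r = -0.78 and rho = -0.89 (-0.78 without the 2 farthest), and 4.36% of all genes lay below -0.5 with Gclm. Clone G, lowest in Gclm, had 560.1 normalized counts of Bach1, its highest, and clone T, among the highest 3 in Gclm, had 187, its lowest. Clone R, whose libraries overlapped those of clone G in Gclm, had 309 of Bach1. Txn1 had r = 0.86 (0.71 without the 2 farthest) with Prdx1, the peroxiredoxin that thioredoxin reduces. Txnip, a member of the first pattern, had r = 0.82 with Arrdc4, an arrestin of its own family that shares its glucose-sensing regulators, and r = -0.87 with Slc7a5. Of all genes, 16.4% had r over 0.5 with Txnip and 14.5% lay below -0.5. In the list of MondoA and ChREBP genes, which holds Arrdc4, 2 of 7 lay over 0.5.

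**Figure D4:**
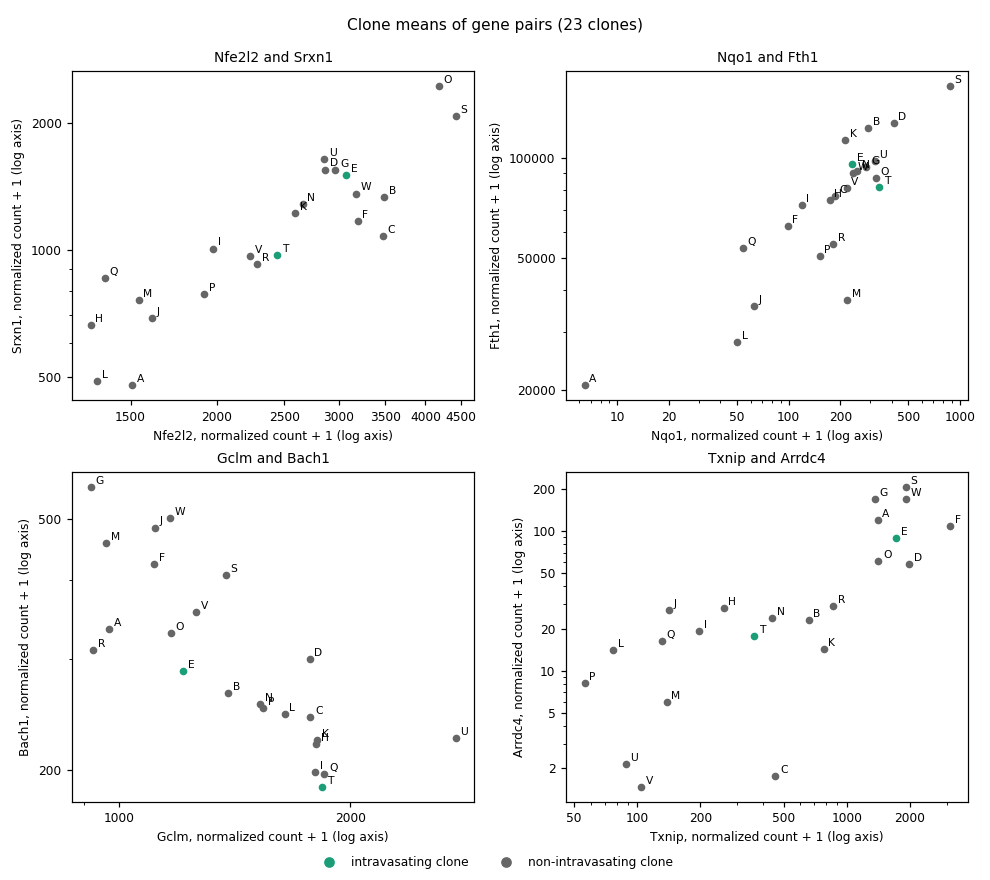
Clone means (normalized count + 1, log axes) of 4 gene pairs, each point 1 of the 23 clones with its letter, green for intravasating and grey for non-intravasating clones. Srxn1 rises with Nfe2l2 (r = 0.90), Fth1 with Nqo1 (r = 0.87) and Arrdc4 with Txnip (r = 0.82), and Bach1 falls as Gclm rises (r = -0.78).

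The comparison of the intravasating clones with the others asks whether these genes mark the clones that enter blood vessels. None of the 10 genes passed limma's test on 1 value per clone (0 of 10), and the background was 0.0% of 13637 genes, of which 109 had an unadjusted p under 0.05. All 10 adjusted p were 1.00 (limma). Clones E and T lay inside the range of the other clones for 9 of the genes. The exception was Txn1, which had 16411 normalized counts in clone T, above all 21 others, and 7998 in clone E, above 6 of them, against a range of 6676 to 14237 with a median of 8805 in the non-intravasating clones. The intravasating minus non-intravasating difference for Txn1 was 0.34 ± 0.22 (SE). Nqo1 was the member in which both clones stood above most of the others, E above 13 and T above 19 of 21, with a difference of 0.52 ± 0.61 (SE). The largest difference, 0.68 ± 1.07 (SE) for Txnip, had the largest error. Without clone E 4 genes of the table were called, and without clone T 1 was, but no member.

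The intravasating clones differed from each other in 7 of the 10 genes, against 28.7% of all genes called in the same contrast. Clone E was higher in 2 (background 15.3%) and lower in 5 (background 13.4%). Txnip had 1563 and 1880.4 normalized counts in clone E and 398 and 323 in clone T, a difference of 2.08 ± 0.15 (SE; limma adjusted p = 4.06e-12). Srxn1 had 1723 and 1289 in clone E and 987 and 953 in clone T (0.59 ± 0.12, limma adjusted p = 0.000504). Both were thus higher in clone E, with no overlap between libraries. Hmox1 had 326 and 264 in clone E and 1097 and 924 in clone T (-1.59 ± 0.16, limma adjusted p = 3.62e-09). Txn1 had 8497 and 7499 in clone E and 19154 and 13668 in clone T (-1.01 ± 0.23, limma adjusted p = 0.000965). Gclm had 1286 and 1139.6 in clone E and 1891 and 1786 in clone T (-0.58 ± 0.11, limma adjusted p = 0.00015). These 3, which formed the second pattern, were lower in clone E. Clones E and T are among the clones that gave the pattern, so their shared direction is no separate support for it.

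Slc7a11 and Nqo1 passed in clone E against clone T by less. Slc7a11 had 1036 and 609 in clone E and 1142 and 1086 in clone T (-0.45 ± 0.14, limma adjusted p = 0.0127), and it missed the threshold without library B of clone E (adjusted p = 0.658) or library A of clone T (0.0891). Nqo1 had 259 and 207 in clone E and 383 and 289.6 in clone T (-0.43 ± 0.15, limma adjusted p = 0.0308), and the same 2 libraries decided it (adjusted p = 0.261 without library B of clone E and 0.36 without library A of clone T), as did a log2(normalized count + 1) scale (0.094) and dropping the filter on low counts (0.0533). Nfe2l2 (0.33 ± 0.14, limma adjusted p = 0.0894), Gclc (-0.33 ± 0.13, limma adjusted p = 0.0612) and Txnrd1 (0.25 ± 0.13, limma adjusted p = 0.167) were not called. Nfe2l2 passed with the library letter as a block (adjusted p = 0.0239) and after quantile normalization (0.036), and Gclc passed without library A of clone E (0.00255).

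In the listed pathways, clone E was higher than clone T in 6 of 14 genes that control NRF2, among them Bach1 with 286 against 187 normalized counts (0.48 ± 0.14, limma adjusted p = 0.00746), and lower in 0. Clone E was lower in 5 and higher in 2 of 9 genes of NADPH supply, with Pgd, an enzyme of the pentose phosphate pathway, at 2768 against 4768 (-0.77 ± 0.13). Of 24 glutathione-using genes 6 were higher and 6 lower, with Gstm1 at 258 in clone E and 40.5 in clone T (1.75 ± 0.17). Of 21 thioredoxin system genes 3 were higher and 6 lower, with Arrdc4 at 87.2 in clone E and 16.6 in clone T (1.13 ± 0.16) and Prdx1 at 7198 in clone E and 15328 in clone T (-1.05 ± 0.24). Over the 9 lists 52 list entries were called, and between 30 and 39 without 1 library of clone E or T, the fewest without library A of clone T. A gene on several lists, such as Chac1 or Arrdc4, counts in each. Of all genes, 28.7% were called in this contrast.

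The lung metastases differed from the tumors in 4 of the 10 genes, with Nfe2l2, Nqo1 and Txnip higher in the metastases and Txnrd1 lower. Limma's test on 1 value per specimen called 31.4% of 13702 genes here, 16.6% higher and 14.8% lower, so 4 of 10 is near the background. Nfe2l2 had 2988 and 4547 normalized counts in Lung_1 and 4312 and 3619.7 in Lung_2, against 2321 and 2409.9 in Tumor_1 and 2775 and 1843 in Tumor_2 (0.71 ± 0.11, limma adjusted p = 0.00231). Nqo1 had 252 and 309 in Lung_1 and 233 and 279.5 in Lung_2, against 158 and 157 in Tumor_1 and 208 and 118 in Tumor_2 (0.59 ± 0.12, limma adjusted p = 0.00645). Both genes were higher in all 4 lung libraries than in any tumor library. Txnip had 971 and 1064 in Lung_1 and 1609 and 2009 in Lung_2, against 842 and 863 in Tumor_1 and 896 and 599 in Tumor_2 (0.73 ± 0.22, limma adjusted p = 0.0348). Txnrd1 had 3224 and 3089 in Lung_1 and 3201 and 3438 in Lung_2, against 4561 and 4558 in Tumor_1 and 4495 and 3871 in Tumor_2 (-0.42 ± 0.11, limma adjusted p = 0.0236). Their libraries did not overlap between the groups either, as held for 31.1% of all genes. For these genes in bulk specimens, fewer cells of a type and less RNA per cell cannot be told apart.

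These calls rest on few libraries. With only the B libraries 0 of 10 members were called. With only the A libraries all 4 of these calls were lost and 1 other gene, Hmox1, was called, and without Tumor_1 or without Tumor_2 1 of the 4, Nfe2l2, was kept. Nfe2l2 was past the threshold in 10 of 12 alternatives, with adjusted p of 9.31e-05 to 0.123, and was lost with either letter alone. Nqo1 was called in 8 of 12 (0.00062 to 0.207), Txnrd1 in 6 (0.0138 to 0.452) and Txnip in 5 (1.41e-11 to 0.233, the lowest where Lung_2 alone stood for the metastases), each also lost without Tumor_1 or without Tumor_2. Without library B of Tumor_2, which stood apart, Txnip was lost (0.60 ± 0.23, limma adjusted p = 0.0872), while Nfe2l2, Nqo1 and Txnrd1 stayed past the threshold. Txnrd1 was also lost without Lung_1 (0.0912) and Txnip without Lung_2 (0.0882).

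The other 6 genes were not called between lung metastases and tumors. Hmox1 had 858 and 799.8 normalized counts in the lung metastases and 1145 and 997 in the tumors (-0.33 ± 0.12, limma adjusted p = 0.0591), and it passed without library B of Tumor_2 (0.0157), without Lung_1 (0.0437) or without the B libraries (0.0439). Txn1 had 11332 and 9975 in the lung metastases and 8987 and 8339.9 in the tumors (0.41 ± 0.15, limma adjusted p = 0.0701), and it passed after quantile normalization (0.49, adjusted p = 0.0326), while its difference was 0.0036 ± 0.18 without library B of Tumor_2. The differences of Gclc, Gclm, Slc7a11 and Srxn1 lay between -0.07 and 0.13. The median difference of the 10 genes was 0.10, against 0.02 for all genes.

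Markers of other cells also differed between these specimens. The summed fibroblast markers (8 of 8 in the table) ran from 1500.1 to 4451 normalized counts in the lung libraries and from 689 to 866 in the tumor libraries. The sums came mostly through Pdgfra, which was also read in cultured clones, with a median of 326 and up to 1756. Lum stayed at or below 3.21 in the mean of every specimen. Postn was lower in the lung metastases (0.449 and 9.92) than in the tumors (52.0 and 80.0). Col1a1 had 45.5 in Lung_1 and 337 in Lung_2, against 53.7 and 52.4 in the tumors. The macrophage markers (11 of 12 in the table) summed to 701 to 1452 in lung libraries and 703 to 856 in tumor libraries, which overlapped, and its genes went different ways. C1qb had 57.8 and 166 in the lung metastases and 18.5 and 17.6 in the tumors. Cd14 had 226 and 229 in the lung metastases and 321 and 323 in the tumors, and Cd68 had 139 and 226 against 235 and 196. Endothelial markers (8 of 8) summed to 89.1 to 154 in lung and 48.7 to 81.5 in tumor libraries, the pan-leukocyte markers (6 of 6) to 135 to 453 in lung and 76.0 to 118 in tumor libraries, and the neutrophil markers (6 of 7) to 48.3 to 76.4 in lung and 28.5 to 40.9 in tumor libraries, each without overlap. The largest endothelial marker, Tie1, had 69.0 and 75.2 in the lung metastases but also up to 75.6 in a clone. Of the neutrophil markers only S100a8 averaged over 10 in the lung metastases (43.6 and 35.9), and it reached 855 in a clone. Cxcr2 was lower in the lung metastases (9.65 and 7.85) than in the tumors (13.3 and 18.6). The epithelial markers (6 of 6) summed to 14054 to 24527 normalized counts in lung libraries, with a median of 18659, and to 19565 to 34000.0 in tumor libraries, with a median of 29814. Within that list Epcam had 631 and 473 in the lung metastases and 3574 and 3173 in the tumors, while the keratin Krt8 had 7542 and 5762 in the lung metastases and 5026 and 4678 in the tumors. The part of these markers in the differences of Nfe2l2, Nqo1, Txnip and Txnrd1 was not tested.

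In the listed pathways, Keap1, the inhibitor of NRF2, had 1193 and 1192 normalized counts in the lung metastases and 653 and 616 in the tumors (0.85 ± 0.10, limma adjusted p = 0.000821). It was the 1 of 14 NRF2 control genes that was higher, and 3 were lower: Amer1 (-0.63 ± 0.14), Maff (-0.51 ± 0.14) and Mafk (-0.45 ± 0.13). Of 24 glutathione-using genes 8 were higher and 4 lower, led by Gstt1 with 100.2 in lung metastases and 18.3 in tumors (1.21 ± 0.16) and by Glrx3 with 191 in lung metastases and 471 in tumors (-0.99 ± 0.13). Of 21 thioredoxin system genes 3 were higher and 4 lower, with Prdx1 at 12065 in lung metastases and 7862 in tumors (0.72 ± 0.15). Detoxification had 6 higher and 1 lower of 14, with Sod3, extracellular superoxide dismutase, at 288 and 49.8 (1.73 ± 0.12) and Sod2, the mitochondrial enzyme, at 814 and 1713 (-0.98 ± 0.12).

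The ATF4 targets had 0 higher and 6 lower of 12, with Psat1 and Phgdh, enzymes of serine synthesis, at -0.88 ± 0.13 and -0.77 ± 0.14, and Slc7a5 at -0.65 ± 0.15. Slc7a11, in whose promoter CARE stood at 2 places, differed by 0.04 ± 0.16, and its partner Slc3a2 by -0.60 ± 0.11. Of 10 heme and iron genes 2 were higher and 1 lower, the transferrin receptor Tfrc with 3575 in lung metastases and 8656 in tumors (-1.23 ± 0.14). Of 9 genes of NADPH supply 3 were higher and 1 lower, with Me1, malic enzyme, at 1147 in lung metastases and 719 in tumors (0.63 ± 0.13). Of 10 glutathione supply genes 1 was higher and 3 lower. Of 8 genes of the glucose-sensing factors MondoA and ChREBP, which drive Txnip, 3 were higher and 2 lower, with Arrdc3 at 750.0 in lung metastases and 306 in tumors (1.15 ± 0.11). In this comparison 31.4% of all genes were called. The list counts rest on few libraries too. Over the 9 lists, 52 list entries were called, against 2 with only the B libraries, 28 with only the A libraries, 18 without Tumor_1 or without Tumor_2 and 41 without library B of Tumor_2. Leaving out that library lowered the thioredoxin system from 7 calls to 4, NADPH supply from 4 to 2 and the MondoA and ChREBP genes from 5 to 2.

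Against the cultured clones, Txnrd1 was the single member called in the specimens. It had 3157 and 3319.7 normalized counts in the lung metastases, against a range of 3625 to 7407 over the 23 clones, so that all 23 clones lay above both metastases (-0.78 ± 0.20, limma adjusted p = 0.00686). Limma called 17.5% of 14107 genes in this comparison, 11.5% higher and 5.94% lower, so that 1 of 10 genes is below the background. The call was kept in 30 of 32 alternatives (adjusted p 0.00259 to 0.136) and lost without Lung_1 (0.136) or Lung_2 (0.127). Nfe2l2, with 3768 and 3966 in the lung metastases, lay above 21 of the 23 clones but was not called (0.66 ± 0.35, limma adjusted p = 0.204). Txnip, Hmox1, Srxn1 and Gclc differed by 1.34 ± 1.03, 0.70 ± 0.47, -0.65 ± 0.39 and -0.40 ± 0.21 (limma adjusted p = 0.402, 0.323, 0.264 and 0.2).

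In the tumors, 0 of 10 genes were called against the clones, with a background of 5.59% of 13875 genes, 4.15% higher and 1.43% lower, and 2614 genes had an unadjusted p under 0.05. Hmox1 had 1145 and 997 normalized counts in the tumors, against 134 to 1049 over the clones, with 21 of 23 clones below both tumors (1.03 ± 0.47, limma adjusted p = 0.221). Srxn1 had 625.3 and 585 in the tumors, with 21 of 23 clones above both (-0.78 ± 0.39, limma adjusted p = 0.277), and Gclc had 999 and 1058, again with 21 of 23 clones above both (-0.47 ± 0.21, limma adjusted p = 0.207). Txnrd1 was at -0.36 ± 0.20 (limma adjusted p = 0.348) in the tumors, beside -0.78 in the lung metastases. The tumor and lung comparisons share the 23 clones, so their values stand side by side and do not support each other. Some markers of host cells were read in cultured clones as well. C1qa had no read in any clone, but the macrophage markers summed to as much as 2663 normalized counts in a clone library, with Cd14 at up to 1699 in a clone, and the fibroblast markers reached 4333 in a clone library, with Postn at up to 3664.

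**Figure D5:**
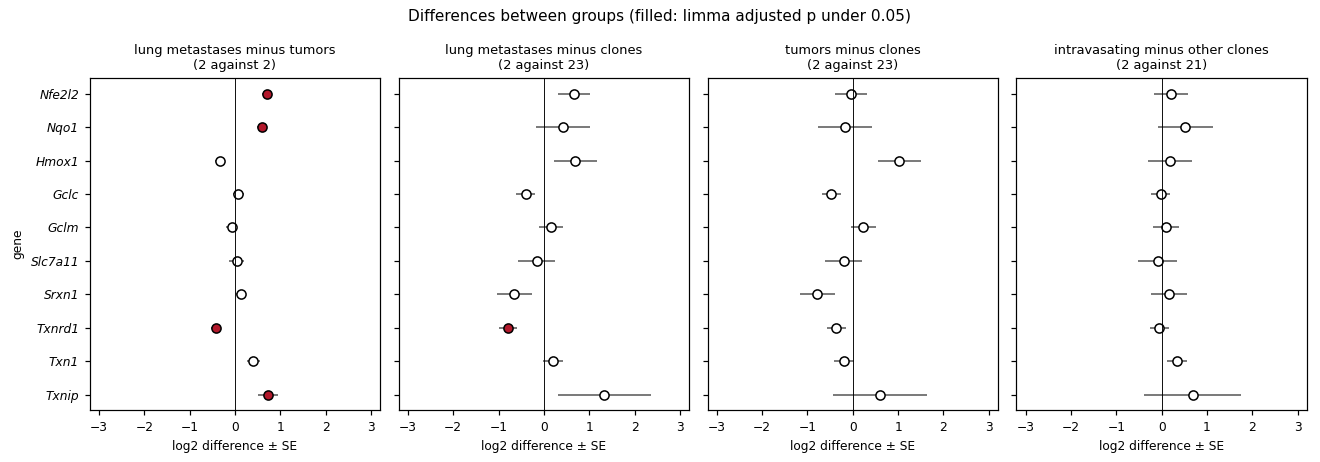
Difference of each gene on the deposited log2 scale with its standard error, in 4 comparisons: lung metastases minus tumors, lung metastases minus clones, tumors minus clones, and intravasating minus other clones; filled points passed a limma adjusted p of 0.05. Filled are Nfe2l2, Nqo1, Txnip and Txnrd1 in the first comparison and Txnrd1 in the second, and the widest error bars belong to Txnip.

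Among the listed pathways, the lung metastases differed from the clones in few genes, beside 17.5% of all genes called in this comparison. Mgst2 and Gstt1 were higher (2.17 ± 0.65 and 1.61 ± 0.40) and Glrx5 and Glrx3 lower (-1.10 ± 0.26 and -0.65 ± 0.19) of 24 glutathione-using genes, and Sod3 was higher (2.25 ± 0.61) and Sod1 lower (-0.69 ± 0.17). The peroxiredoxin Prdx3 of the thioredoxin system (-0.75 ± 0.25), Dpp3 of NRF2 control (-0.65 ± 0.21) and Psat1 of the ATF4 targets (-1.18 ± 0.32) were lower. Of 12 list entries called against the clones, 1 was called without Lung_1 and 1 without Lung_2. In the tumors 1 listed gene was called, Gpx1, the main cytosolic glutathione peroxidase, with 9510.2 normalized counts in the tumors and a mean of 14988 in the clones (-0.79 ± 0.19, limma adjusted p = 0.0118). No listed gene was called (0) without library B of Tumor_2, without Tumor_2, without the B libraries or after quantile normalization.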

How the data were processed

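RNA of 23 clones, 2 tumors and 2 lung metastases was profiled, with 2 libraries each. Per the labels' protocols, 100 ng of total RNA was amplified with a NuGEN Ovation kit and reads were 76 bases long. Per the submitters' processing notes, the build was mm10 and the tools were Bowtie2, HTSeq and DESeq, with versions and settings not given in the sources used here. The authors deposited log2 values for 23481 genes in 54 libraries. By their values they are variance-stabilised, with a gene without reads at 5.03. Inverting that curve gave normalized counts, and dividing by the value of 1 read gave whole reads within 0.01 for 100% of values. No count test was run, because the deposited unit is log2.

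Tests used limma 3.58.1 in R 4.3.3, two-sided, with a variance trend, over every gene that reached 10 normalized counts in 2 or more libraries of a comparison, with Benjamini-Hochberg adjustment and a threshold of 0.05. Specimens and the intravasating clones were compared on 1 value per clone or specimen, clones among themselves on 46 libraries. The tests were tested on simulated data. Overlap between neighbouring clones or groups means that the ranges of their libraries meet. Correlations use clone means of log2 values. Positions are from GENCODE vM21 and promoters from RefSeq, both on the build the notes name. The genes most like a member were the 4 with the highest r among genes with a median of at least 50 normalized counts; of each pathway list, up to 4 called genes with the largest difference could be named, if the group with the higher level averaged 50 or more normalized counts. The members, lists and rules were chosen with earlier results of these data known. The letters A and B were not taken to pair libraries, because no label says so and not every pair correlated. Over 253 pairs of clones, the correlation of same-lettered deviations ran from -0.50 to 0.64 with the median at 0.08, and 113 lay over 0.1. Single members still leaned by letter. Library A was above library B in 20 of 23 clones for Txn1, in 19 for Nfe2l2 and in 8 for Txnrd1. For the other members it was above in 14 to 17.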

Additional observations from a re-analysis of the deposited data

Results flagged for a closer look

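Each library was set against the other libraries of its group of 4 by Dixon's rule, for 10 genes in 3 groups. The rule flags about 1 in 20 by chance if the libraries are independent draws. Here libraries A and B share a clone or specimen, and the genes share libraries, so that rate is no background for the count of flags. In 4 of 30 tests the lowest library lay far below the rest. In 3 of the 4 it was library B of Tumor_2, with 806 normalized counts of Hmox1 (1134 to 1187 in the other tumor libraries), 1346 of Gclm (1748 to 1829) and 3871 of Txnrd1 (4495 to 4561). In the other it was library B of clone E, with 1027 normalized counts of Gclc, against 1529 in library A of clone E and 1575 and 1617 in clone T. Without library B of Tumor_2, the lung minus tumor difference of Txnrd1 stayed past the threshold and that of Hmox1 passed it (-0.46, limma adjusted p = 0.0157).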

How the results depend on the processing

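Over 50 differences of single members, 1104 of 1170 values under other settings kept their direction and their side of the threshold, 27 lost a call, 7 gained a call and 32 changed sign, all of these in differences that were not called. The count of genes called for lung metastases minus orthotopic tumors was 4305, with 325 to 4650 when libraries or specimens were left out and 2645 without the filter on low counts, and that of members was 4, with 0 to 4 and 2, and 5 after quantile normalization. For lung metastases minus clones the counts were 2466 genes (413 to 2670 on leaving out, 7978 without the filter) and 1 member (0 to 1). For tumors minus clones they were 775 genes (73 to 1001 on leaving out, 425 after quantile normalization, 2300 without the filter) and 0 members throughout. For clone E minus clone T they were 3919 genes (2535 to 3042 on leaving out) and 7 members (5 to 8), and for the intravasating clones 0 genes (0 to 4) and 0 members. The cause was not tested, except that leaving out takes samples from the fit.

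On leaving out a clone or library letter, the intravasating minus non-intravasating difference ran from -0.61 to 0.98 for Hmox1, -0.19 to 0.14 for Gclc, -0.20 to 0.38 for Gclm, -0.32 to 0.14 for Slc7a11, -0.13 to 0.46 for Srxn1, -0.17 to 0.077 for Txnrd1, -0.16 to 0.85 for Txn1 and -0.35 to 1.72 for Txnip, and after quantile normalization it was 0.010 for Txnrd1. Tumors minus clones ran from -0.10 to 0.10 for Nfe2l2 (0.065 after quantile normalization) and -0.34 to 0.21 for Txn1. Lung metastases minus clones ran from -0.38 to 0.065 for Slc7a11 and -0.078 to 0.50 for Txn1. Lung metastases minus tumors ran from -0.12 to 0.27 for Gclc, -0.18 to 0.040 for Gclm, -0.19 to 0.26 for Slc7a11, -0.037 to 0.31 for Srxn1 and -0.019 to 0.83 for Txn1.

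The library letters were not taken to pair the clones. With the letter as a block, 13066 genes and 10 members were called among the clones, and 4207 genes and 8 members for clone E minus clone T. Txn1 then differed in 76 pairs of clones, against 46 without the block.

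The alternatives that leave out library B of Tumor_2, each clone and each library were chosen after seeing the data. With 2 specimens or 2 intravasating clones set against the other clones, differences the size of the spread between clones could not be called. The fit of lung metastases against tumors holds no clones, and its standard errors were smaller. For Nfe2l2 the standard error was 0.11 there and 0.35 for lung metastases minus clones. Leaving out a specimen makes the lone sample vary as the others are assumed to. For Nqo1 in clone A the level rests on few reads.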
